A study of Mus musculus with 25 samples.

Results

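Gene expression in sorted lung mesenchymal cells was compared between 6 and 3 weeks after bleomycin in Fas+/+ mice, the interval over which lung fibrosis resolves in this model. The comparison rests on 8 bulk RNA-seq libraries of the 25 samples in the series, chosen by their labels as the 4 replicates at 6 weeks and the 4 replicates at 3 weeks. The series also holds 4 bulk libraries from uninstilled (naive) mice, 8 from Fas-/- mice at 3 and 6 weeks and 5 single-cell libraries, which are given here only as reference. All bulk libraries came from Lin- lung cells, meaning that cells bearing CD45 (leukocytes), CD31 (endothelium) or CD326 (epithelium) were sorted out, which leaves fibroblasts together with smooth muscle cells, pericytes and mesothelial cells.

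Fas+/+ mice were Col1a1-Cre-ERT2;Fas fl/fl animals that were instilled intratracheally with bleomycin and given corn oil vehicle. They therefore carry the floxed Fas alleles, in which exon 9 is flanked by loxP sites, and the tamoxifen-inducible Cre driven by the Col1a1 promoter, and differ from a wild-type mouse in both. The Fas-/- mice were of the same cross and received tamoxifen after bleomycin, so deletion and tamoxifen cannot be told apart. The naive mice were also Col1a1-Cre-ERT2;Fas fl/fl animals. Whether they received corn oil is not stated, so bleomycin and the vehicle injections cannot be told apart in comparisons with naive mice. The methods of the study place the injections of corn oil or tamoxifen between bleomycin and the earlier harvest. Time since the last injection therefore also differs between the earlier and later libraries of both genotypes. It cannot be told apart from time since bleomycin, and its part was not tested. The sources used here do not give the age or sex of the mice for these libraries. The labels do not say whether a bulk library came from 1 mouse or from several. The methods of the study define n as individual animals, and among the sequenced samples it is the single-cell groups that are described as pools. In bulk samples, fewer cells of a type and less RNA per cell cannot be told apart.

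Bleomycin injures the alveolar epithelium. Lung fibroblasts answer the injury by dividing and by secreting a provisional matrix of fibronectin and tenascin, followed by fibrillar collagens, under the influence of transforming growth factor β. In young mice the scar is later cleared. Collagen is degraded, the number of activated fibroblasts declines, partly through apoptosis by death receptors such as Fas, and alveolar fibroblasts with stored lipid and retinoid, which support the epithelium, are seen again.

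Total counts were between 11819700 and 20178149 in the 4 libraries at 3 weeks and between 19268717 and 24045888 at 6 weeks. Replicate 1 at 3 weeks stood apart, with a correlation of log2 CPM (counts scaled to the library size) with its group of 0.943 to 0.958, where the other 3 libraries of that group correlated at 0.984 to 0.988. The libraries also differed in sex-linked RNA. At 3 weeks Ddx3y, on the Y chromosome, was at 0.049 CPM in replicate 1 and at 50.3, 56.5 and 59.8 CPM in replicates 2 to 4, and at 6 weeks it was at 2.1, 0.084, 0.099 and 48.4 CPM. It was thus high in most libraries at 3 weeks and in replicate 4 alone at 6 weeks. Sex and week are partly confounded in this comparison and cannot be fully told apart. Replicate 2 at 6 weeks held the most epithelial, platelet and hematopoietic marker RNA of its group. Every result that leads a paragraph was therefore also computed without replicate 1 at 3 weeks, and the counts of called genes without both of these libraries.

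Markers of cell types that the sort should remove were present and moved with the comparison. Summed endothelial markers (20 genes) were at 4003 to 14424 CPM at 3 weeks, highest in replicate 1, at 986 to 3011 CPM at 6 weeks and at 541 to 985 CPM in naive mice. The groups did not overlap for 17 of the 20 genes, beside 23.5% of all genes tested. Called lower were 2 (10%, near the 10.9% of all genes tested), with a median log2 fold change of -2.12. This count was 0 without replicate 1 at 6 weeks, 1 without replicate 1, 2 or 3 at 3 weeks, without replicate 3 or 4 at 6 weeks, without both libraries or with no filter on low counts, 3 with Ddx3y as a covariate, 4 with DESeq2, 13 with the epithelial markers as a covariate and 14 with only the groups compared, and the median was -1.48 without replicate 1 at 3 weeks. Pecam1 (CD31) was at 1626, 568, 454 and 413 CPM at 3 weeks and at 69.2, 291, 197 and 112 CPM at 6 weeks. Of 8 lymphatic markers 4 were called lower, a count that was 0 to 2 without replicate 2 or 3 at 3 weeks or replicate 1, 3 or 4 at 6 weeks. Hematopoietic markers (15 genes tested) summed to 97.9 to 112.7 CPM at 3 weeks and to 29.9 to 197 CPM at 6 weeks, with 3 called lower (11 without replicate 2 at 6 weeks) and 1 higher, and 10 platelet markers gave no call, with 1 at an unadjusted p under 0.05. Erythroid markers (7 genes) summed to 31.3 to 94.8 CPM at 3 weeks and 97.7 to 255.3 CPM at 6 weeks, with 6 called higher (1 without replicate 2, 3 or 4 at 3 weeks or replicate 2 at 6 weeks, and 3 without replicate 1 at 6 weeks), and to 2992.5 to 9623 CPM in naive mice. Called lower were 50% of the lymphatic and 20% of the hematopoietic markers, beside 10.9% of all genes tested. Called higher were 85.7% of the erythroid and 6.67% of the hematopoietic markers, beside 12.0% of all genes tested. Except where a fit with the endothelial or epithelial markers as a covariate is given, the part of the cells that the sort should remove in the results below was not tested. Of the markers that define the sorted cells, Pdgfra, Pdgfrb, Col1a1, Col1a2, Col3a1, Col6a1, Dcn, Tcf21, Acta2 and Thy1 were all expressed, with a summed level of 15269 CPM in replicate 1 at 3 weeks, 40585 to 49409 CPM in the other 3 libraries at 3 weeks and 20441 to 23953 CPM at 6 weeks. The sum includes the abundant collagens Col1a1, Col1a2 and Col3a1, so it does not measure the share of sorted cells. The mean log2 CPM of the list was 9.53 to 10.47 at 3 weeks and 9.95 to 10.08 at 6 weeks (median change -0.08).

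**Figure D1:**
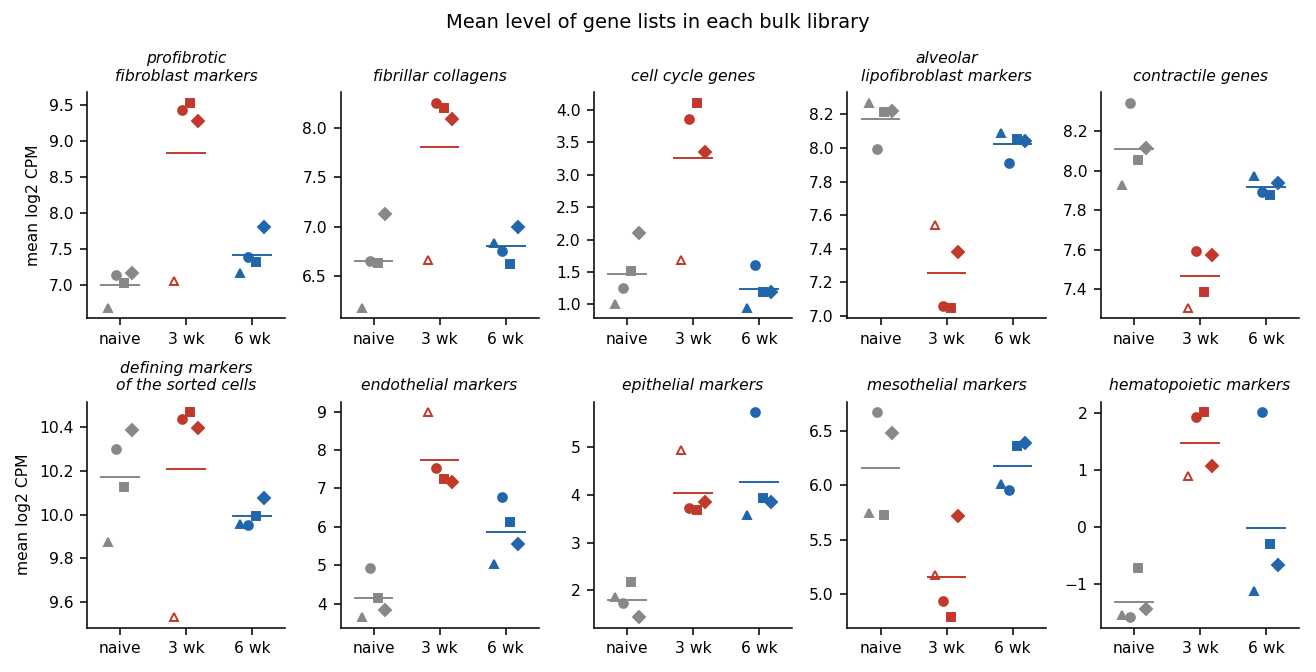
Mean log2 CPM of 10 gene lists in each bulk library of naive mice and of Fas+/+ mice 3 and 6 weeks after bleomycin, with 1 point per library and a line at the group mean; the open triangle is replicate 1 at 3 weeks. That library lies near the naive libraries for the profibrotic markers, fibrillar collagens and cell cycle genes, and has the highest level of endothelial markers of all libraries shown.

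Before any result, the time labels of the 2 kinds of data go against each other. The single-cell series holds 1 library per condition. In the cells kept from the libraries labelled Fas+/+, 1462 of 1585 measured genes that were lower at 6 weeks in bulk (92.2%) had a higher UPM (UMIs scaled to the library total in the way of CPM) in the library labelled 6 weeks than in the one labelled 3 weeks. All directions below are those of the bulk labels. The single-cell values are given at the end, with no direction in time drawn from them.

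Of 15773 genes tested with edgeR's quasi-likelihood F test, 1725 were called lower at 6 weeks than at 3 weeks (10.9%) and 1890 higher (12.0%), at a Benjamini-Hochberg adjusted p of 0.05 or less. Among the called genes with at least a 2-fold change, the lower ones were more numerous, with 669 against 348. The 4 libraries of one time point lay entirely above or below the 4 of the other for 3699 genes (23.5%). These shares of all genes tested are the reference for the list counts above and below. Some counts lay near them, such as the 10% of small leucine-rich proteoglycans that were lower. So did the 12.5% of matrix breakdown genes, collagen maturation enzymes and inflammatory fibroblast genes that were higher. Such counts do not set a list apart. Without replicate 1 at 3 weeks 2305 genes were lower and 2574 higher, and without that library and replicate 2 at 6 weeks 2182 were lower and 2352 higher. Levels are given below as CPM with TMM library sizes, in the order of replicates 1 to 4, and changes as log2 fold changes of 6 over 3 weeks with their SE.

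The genes with the smallest p varied little within each group, which their choice by p and lack of overlap favors. Nenf (chr1:191306789-191318194 of GRCm38, minus strand), which encodes the secreted protein neudesin, was at 45.0, 48.2, 47.9 and 49.9 CPM at 3 weeks and at 68.5, 66.3, 67.5 and 69.5 CPM at 6 weeks. Its levels at 6 weeks overlapped those of naive mice, 65.8 to 72.4 CPM, and all 4 libraries at 3 weeks lay below (log2 fold change 0.51, SE 0.047, adjusted p = 4.34e-05). Pcx, the pyruvate carboxylase that feeds the citric acid cycle, showed the same order, with 22.7, 21.5, 21.1 and 20.6 CPM at 3 weeks and 35.6, 37.2, 41.2 and 41.1 CPM at 6 weeks (0.85, SE 0.08, adjusted p = 4.34e-05). Also among the 10 smallest p of the genes that rose were Spint2, an inhibitor of serine proteases (1.25), the glutamate transporter Slc1a3 (1.04), the interleukin 11 receptor subunit Il11ra1 (0.96) and Slc38a5, a glutamine transporter (0.99).

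Among the genes that fell, Zswim6 was at 46.5, 43.3, 46.6 and 45.0 CPM at 3 weeks and at 22.6, 25.2, 22.5 and 22.5 CPM at 6 weeks (-0.97, SE 0.10, adjusted p = 5.26e-05). Pxdn, peroxidasin, which crosslinks collagen IV in basement membranes, was at 524, 592, 602 and 481 CPM at 3 weeks and at 183, 244, 208 and 201 CPM at 6 weeks (-1.39, SE 0.15, adjusted p = 5.26e-05). Replicate 1 at 3 weeks was within its group for both. Chst11, a chondroitin sulfotransferase, fell by 1.70, and Ass1, the argininosuccinate synthase that makes arginine, fell by 1.59. For each gene whose groups did not overlap, the two-sided exact permutation test of 4 against 4 libraries gave p = 0.0286, the smallest p this design allows. Lack of overlap fixes this p in advance, so it restates the separation and is no added support. Genes named below to complete a list, rather than by the rule stated with the processing, were chosen after their values were seen, Grem1, Timp1, Inhba, Tcf21, Lpl, Acta2 and Postn among them.

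**Figure D2:**
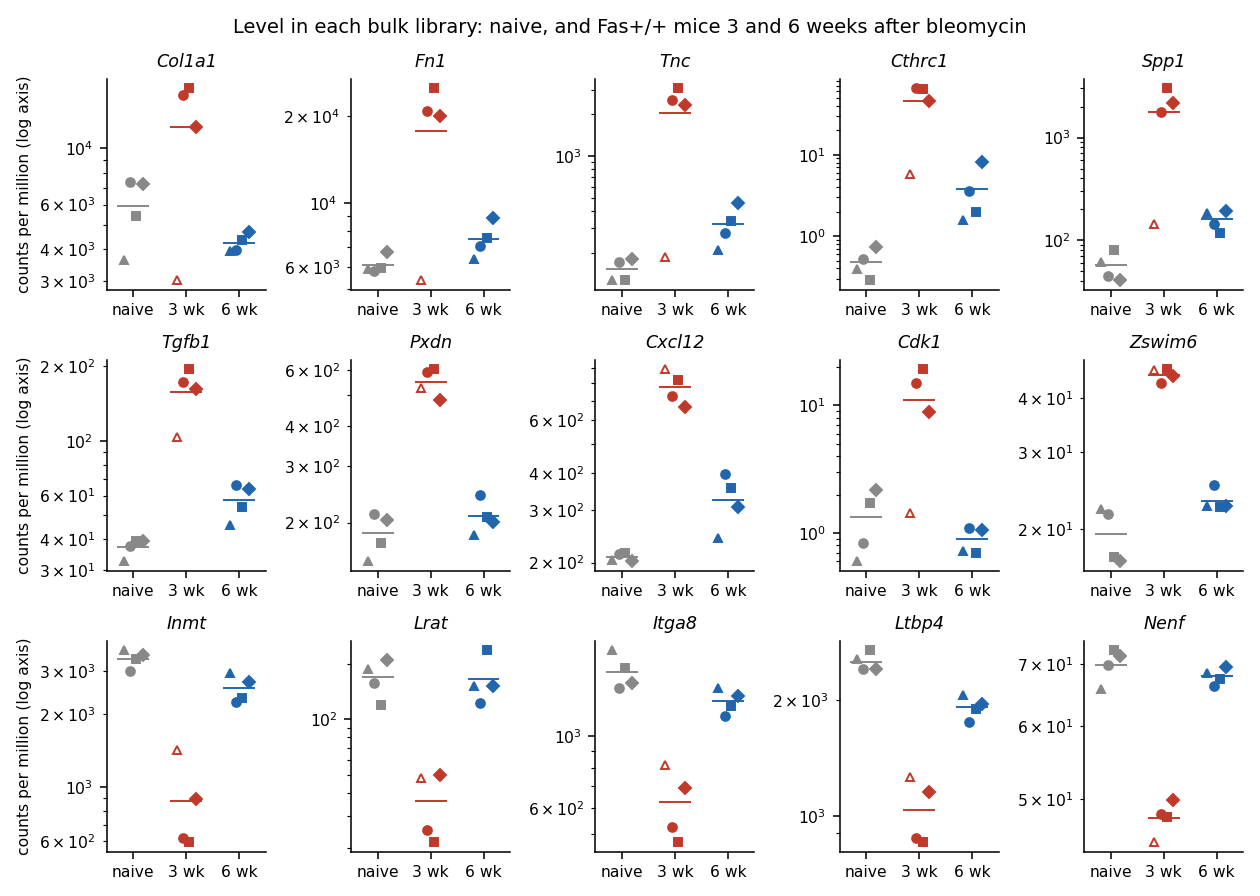
CPM (log axis) of 15 named genes in each bulk library of naive mice and of Fas+/+ mice 3 and 6 weeks after bleomycin, with 1 point per library and a line at the group mean; the open triangle is replicate 1 at 3 weeks. Col1a1, Fn1, Tnc, Cthrc1, Spp1 and Cdk1 are high in 3 of the 4 libraries at 3 weeks, while Tgfb1, Pxdn, Cxcl12, Zswim6 and the 5 genes of the bottom row separate all 4 libraries at 3 weeks from all 4 at 6 weeks.

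The fibrillar collagens, the load-bearing part of scar matrix, were lower at 6 weeks in 8 of 11 genes and higher in 0 (median -1.25). Col1a1 (chr11:94936224-94953042, plus strand), the main chain of collagen I, was at 3025, 16239, 17202 and 12121 CPM at 3 weeks and at 3937, 3991, 4343 and 4664 CPM at 6 weeks, beside 3647 to 7387 CPM in naive mice. At 3 weeks 3 libraries were above all others, and replicate 1 was below every library at 6 weeks (-1.52, SE 0.39, adjusted p = 0.00907; without replicate 1, -1.84, adjusted p = 7.86e-05). With Ddx3y as a covariate, Col1a1 and Col5a3 were no longer called, and 3 of the 11 collagens were. Col5a1, which nucleates collagen fibrils, was at 581, 2601, 2914 and 2080.4 CPM at 3 weeks and at 696 to 831 CPM at 6 weeks (-1.43, SE 0.35, adjusted p = 0.00674). Col11a1, a minor fibril collagen of cartilage that is low in lung, was at 1.62, 47.5, 36.2 and 27.8 CPM at 3 weeks and at 0.893 to 6.7 CPM at 6 weeks (-3.43, SE 0.77, adjusted p = 0.00406). The groups overlapped for every fibrillar collagen, and in these 3 it was replicate 1 at 3 weeks that lay among the libraries at 6 weeks or below them.

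Other collagens went both ways, with 7 of 22 lower and 5 higher (median -0.24; 4 lower with Ddx3y as a covariate). Col4a1 (chr8:11198423-11312826, minus strand), of the basement membrane, was at 3357, 4435, 4696 and 3960 CPM at 3 weeks and at 2280.2, 2348, 2356 and 2132 CPM at 6 weeks, so the groups did not overlap (-0.85, SE 0.12, adjusted p = 0.000193). In the single-cell library labelled Fas+/+ 6 weeks, Col4a1 was at 794.0 UPM in kept cells and 870.7 UPM over all cells. The part of endothelial cells in the fall of Col4a1 was not tested. Its partner chain Col4a2 fell alike (-0.84), as did Col7a1, the anchoring fibril collagen (-2.40), which replicate 1 at 3 weeks did not share (28 CPM against 184 to 296 CPM). Col13a1, a transmembrane collagen of alveolar fibroblasts, rose from 308, 220.0, 228 and 297 CPM to 532, 381, 471 and 415 CPM (0.77, SE 0.12, adjusted p = 0.000391). Col4a6 also rose (0.79), as did Col4a3 (1.57) and Col4a4 (1.35), 2 chains of the alveolar basement membrane that epithelial cells also make.

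Provisional matrix and matricellular proteins were lower in 11 of 20 genes and higher in 2 (median -1.02). The count of 11 was 5 without replicate 3 at 3 weeks or with Ddx3y as a covariate, and 7 without replicate 1 at 6 weeks. Tnc, tenascin C, was at 186, 2549, 3070.0 and 2326 CPM at 3 weeks and at 208, 279.9, 339.7 and 459 CPM at 6 weeks (-2.66, SE 0.58, adjusted p = 0.00352; without replicate 1 at 3 weeks, -3.04). Fn1, fibronectin, was at 5388, 20864, 24930.0 and 19989 CPM at 3 weeks and at 6374, 7095, 7543 and 8841 CPM at 6 weeks (-1.25, SE 0.34, adjusted p = 0.0132; without replicate 1, -1.55). The call of Fn1 was lost with only the groups compared (adjusted p = 0.065), with Ddx3y as a covariate (-0.87, adjusted p = 0.0737) and without replicate 3 at 3 weeks (-1.05, adjusted p = 0.0528). For Tnc and Fn1, 3 libraries at 3 weeks stood far above every library at 6 weeks and replicate 1 below. Postn, periostin, was at 382, 827, 722 and 693 CPM at 3 weeks and at 521 to 621 CPM at 6 weeks and was not called (-0.17, adjusted p = 0.692). The 2 genes that rose were the CCN family members Nov (Ccn3; 1.02) and Wisp2 (Ccn5; 0.73).

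Profibrotic fibroblast markers, a list of genes that mark matrix-producing fibroblasts of injured lung and that shares members with the lists above, were lower in 13 of 18 genes and higher in 1 (median -1.57; without replicate 1 at 3 weeks or with the endothelial markers as a covariate, 14 lower, with medians of -1.90 and -1.94). With Ddx3y as a covariate 9 were lower and the median was -0.96, with only the groups compared 9 were lower, and with single libraries left out 10 to 14 were lower. Cthrc1 (chr15:39076932-39087121, plus strand), a secreted protein that marks collagen-rich fibroblasts, was at 5.84, 65.1, 64.8 and 46.2 CPM at 3 weeks and at 1.57, 3.57, 1.98 and 8.16 CPM at 6 weeks, beside 0.287 to 0.736 CPM in naive mice (-3.58, SE 0.62, adjusted p = 0.000736). Cthrc1 at 6 weeks was still above naive mice (2.95, adjusted p = 0.0283). Spp1, osteopontin, was at 146, 1779, 2999 and 2179.9 CPM at 3 weeks and at 183, 146, 117 and 193 CPM at 6 weeks (-3.47, SE 0.67, adjusted p = 0.00158). Lrrc15, a membrane protein of activated fibroblasts, had the largest fall of the genes named by size of change, from 1.03, 23.7, 17 and 13.9 CPM to 0.525, 0.799, 0.694 and 0.504 CPM (-4.45, SE 0.72, adjusted p = 0.000454). Grem1, an antagonist of bone morphogenetic proteins, fell by 3.68, and the transcription factor Runx1 fell by 2.01. The gene that rose was Lrrc17 (0.72), and Acta2, the smooth muscle actin by which myofibroblasts are stained, was at 843 to 1327 CPM at 3 weeks and 1306 to 1481 CPM at 6 weeks and was not called (0.29, adjusted p = 0.403).

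**Figure D3:**
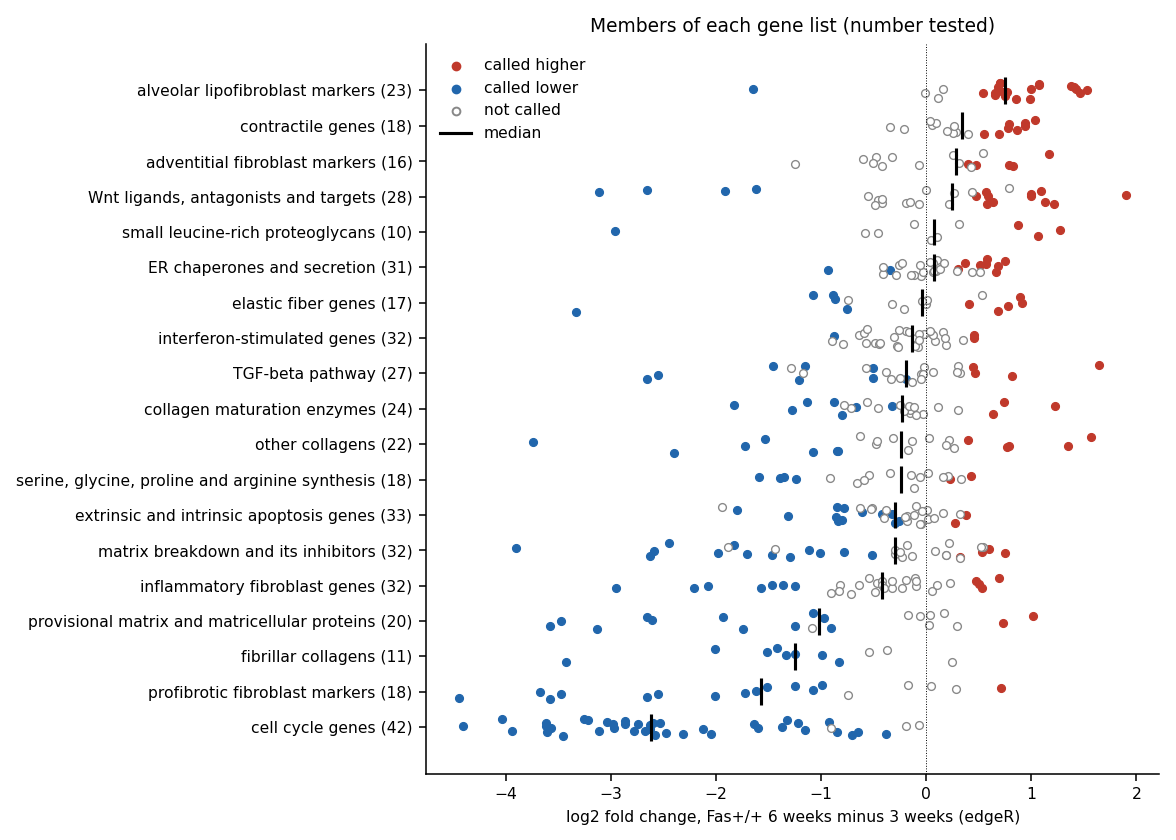
Log2 fold change (6 over 3 weeks, Fas+/+ mice, edgeR) of every tested member of 19 gene lists, with filled points for called genes, open points for genes not called and a bar at the median. The cell cycle genes are all left of zero with a median of -2.62, and the alveolar lipofibroblast markers have the highest median, 0.75, with Lpl as the one member called lower.

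The enzymes that mature and crosslink collagen were lower in 7 of 24 genes and higher in 3 (median -0.23). The count of 7 was 11 without replicate 1 at 3 weeks or with the endothelial covariate, 3 without replicate 3 at 3 weeks, 4 without replicate 2 at 6 weeks and 2 with Ddx3y as a covariate. The lysyl oxidase Lox, which crosslinks collagen and elastin, was at 214, 496, 616 and 477 CPM at 3 weeks and at 236 to 279 CPM at 6 weeks (-0.80, SE 0.23, adjusted p = 0.0169). The procollagen C-proteinase Bmp1 (-0.88) and the prolyl hydroxylase subunit P4ha3 (-1.83) also fell. P4ha3 was not called with only the groups compared (adjusted p = 0.0589) or with Ddx3y as a covariate (-1.08, adjusted p = 0.0917). Serpinh1, the collagen chaperone, was not called (-0.12, adjusted p = 0.653). The enhancer of procollagen processing Pcolce2 rose, from 677, 282, 255 and 405 CPM to 1121, 872, 930.4 and 868 CPM, with no overlap (1.23, SE 0.22, adjusted p = 0.000877).

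Of the matrix proteases, plasminogen system genes and their inhibitors, 13 of 32 were lower and 4 higher (median -0.30), and members of opposite function were among those that fell. The count of 13 was 6 with Ddx3y as a covariate, 7 without replicate 3 at 3 weeks and 8 without replicate 1 or replicate 3 at 6 weeks. Timp1, an inhibitor of metalloproteinases, was at 24, 289, 477 and 288 CPM at 3 weeks and at 32.3, 47.6, 69.5 and 47.7 CPM at 6 weeks (-2.45, SE 0.55, adjusted p = 0.00422). Mmp10, stromelysin 2, was at 0.343, 5.9, 7.27 and 5.37 CPM at 3 weeks and at 0.121 to 0.462 CPM at 6 weeks (-3.91, SE 0.80, adjusted p = 0.0023). The plasminogen activators Plau (-1.30) and Plat (-0.52) and the urokinase receptor Plaur (-1.71) fell as well. The collagenase Mmp13 (-2.59), the membrane-type proteinase Mmp14 (-0.79) and the collagen-degrading cathepsin Ctsk (-1.02) were lower, and the gelatinase Mmp2 was not called (-0.30). Inhibitors were also among the genes that rose. Timp3, which binds to matrix, went from 1706, 1763, 1657 and 1797 CPM to 2622, 2568, 2263 and 2580.2 CPM (0.54, SE 0.08, adjusted p = 0.000325), and Reck rose by 0.75 on the log2 scale.

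Of 27 genes of the TGF-β pathway, 8 were lower and 4 higher (median -0.19), the 4 being 2 without replicate 2 at 3 weeks or replicate 1 at 6 weeks. Tgfb1 (chr7:25687002-25705077, plus strand), the ligand most tied to fibrosis, was at 103, 173, 195 and 162 CPM at 3 weeks and at 45.8, 66.5, 54.0 and 63.6 CPM at 6 weeks, with no overlap and beside 32.6 to 39.4 CPM in naive mice (-1.46, SE 0.16, adjusted p = 5.57e-05). Its level at 6 weeks remained above naive mice (0.63, adjusted p = 0.0297). The activin subunit Inhba, another ligand of the family, was at 4.66, 56.8, 75.8 and 59.3 CPM at 3 weeks and at 6.89 to 10.2 CPM at 6 weeks (-2.66, SE 0.55, adjusted p = 0.00253), and Fst, follistatin, which binds activins, fell by 2.55. The receptors Tgfbr1 (0.07) and Tgfbr2 (-0.05) were not called, while the co-receptor Tgfbr3 rose (0.46). Among signal carriers Smad3 rose (0.44) and Smad2 fell (-0.19), and of the inhibitors Skil fell (-0.51) and the decoy receptor Bambi rose from 17.4, 15, 9.93 and 16.2 CPM to 29.1, 23.1, 25.9 and 25.6 CPM (0.82, SE 0.12, adjusted p = 0.000266). Itgb6, the beta chain of an epithelial integrin that activates latent TGF-β, rose from 12.4, 6.75, 5.23 and 9.28 CPM to 16.9, 38, 30.4 and 20.4 CPM (1.64, SE 0.34, adjusted p = 0.0024), beside epithelial markers that summed to 392.5 to 1152 CPM at 3 weeks and 945 to 2199 CPM at 6 weeks.

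The cell cycle genes moved most as a group: 39 of 42 were lower at 6 weeks and 0 higher (median -2.62; without replicate 1 at 3 weeks, 40 lower and a median of -2.94), and 23 had no overlap. With the endothelial markers as a covariate 40 were lower. With Ddx3y as a covariate 37 were lower and the median was -1.99, and with the epithelial markers 39 and -2.33. Cdk1 (chr10:69335146-69352938, minus strand), the kinase that drives entry into mitosis, was at 1.42, 15.1, 19.1 and 8.82 CPM at 3 weeks and at 0.726, 1.09, 0.694 and 1.06 CPM at 6 weeks (-3.62, SE 0.64, adjusted p = 0.000831). Replicate 1 at 3 weeks was the lowest of its group and still above every library at 6 weeks. Plk1, the polo-like kinase of mitosis, was at 3.19, 17.5, 19.1 and 8.72 CPM at 3 weeks and at 0.992 to 1.77 CPM at 6 weeks (-2.98, SE 0.46, adjusted p = 0.000315). Kif23, a kinesin of cytokinesis, was at 1.08, 12.4, 17.4 and 7.7 CPM at 3 weeks and at 0.363 to 0.883 CPM at 6 weeks (-4.04, SE 0.76, adjusted p = 0.00134). Mki67, which encodes the proliferation antigen Ki-67, was at 12.6, 92.8, 103 and 68.5 CPM at 3 weeks and at 5.81, 14.1, 6.99 and 10.8 CPM at 6 weeks and overlapped through replicate 1 (-2.87, SE 0.60, adjusted p = 0.00264). Among the smaller changes were those of genes of DNA replication, the helicase subunits Mcm3 (-1.33) and Mcm6 (-0.93) and the clamp Pcna (-0.38). The 3 members not called were Cdc6 (-0.91), Mcm4 (-0.20) and E2f1 (-0.07). At 6 weeks the list was near its level in naive mice (median -0.28).

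The promoters of mitotic genes are known for CCAAT boxes and for the cell cycle homology region (CHR), by which the DREAM complex keeps them silent in resting cells. The promoters of 3 of them are shown as examples that hold both motifs. Those of Bub1 (-4.41) and Cenpe (-3.26), which also fell, held the CCAAT box but no match to the CHR sequences given below. Other forms of the CHR were not searched for. Each window shown runs from 250 bases before to 50 after the annotated start (RefSeq, GRCm38.p6), 5′ to 3′ on the strand of the gene. The CCAAT box (CCAAT, or ATTGG on the other strand) and the CHR (TTTGAA or TTCAAA) are in capitals. The 3 windows lie at chr10:69352863-69353162 (minus strand), chr7:122159185-122159484 (plus strand) and chr9:61946750-61947049 (minus strand).
Cdk1: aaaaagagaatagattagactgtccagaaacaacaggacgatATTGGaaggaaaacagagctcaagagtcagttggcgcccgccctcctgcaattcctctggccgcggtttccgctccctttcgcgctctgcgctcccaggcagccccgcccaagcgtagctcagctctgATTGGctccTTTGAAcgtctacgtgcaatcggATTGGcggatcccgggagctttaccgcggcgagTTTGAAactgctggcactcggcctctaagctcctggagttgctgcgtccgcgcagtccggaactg
Plk1: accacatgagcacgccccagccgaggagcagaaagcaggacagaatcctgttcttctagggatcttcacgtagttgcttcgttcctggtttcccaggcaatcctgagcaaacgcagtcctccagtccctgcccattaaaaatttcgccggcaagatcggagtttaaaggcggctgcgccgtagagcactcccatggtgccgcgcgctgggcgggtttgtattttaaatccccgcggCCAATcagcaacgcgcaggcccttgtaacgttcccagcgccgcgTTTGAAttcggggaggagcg
Kif23: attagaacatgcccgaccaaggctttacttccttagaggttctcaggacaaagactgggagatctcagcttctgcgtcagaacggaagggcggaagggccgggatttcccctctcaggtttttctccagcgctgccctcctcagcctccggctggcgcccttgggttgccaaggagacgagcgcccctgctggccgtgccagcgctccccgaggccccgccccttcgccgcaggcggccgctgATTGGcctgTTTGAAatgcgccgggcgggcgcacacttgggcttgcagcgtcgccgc
Of 39 promoters found for 36 of the 42 genes, 76.9% held a CCAAT box, 46.2% a CHR and 43.6% both. Of the 14480 promoters of all genes tested, 37.0% held a CCAAT box, 12.0% a CHR and 4.72% both. Among the promoters of all genes that fell, the share with both was 6.95%, and among those of genes that rose it was 4.2%. These matches are a description of letters in a window of fixed length and were not tested.

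Of the genes of extrinsic and intrinsic apoptosis, 12 of 33 were lower at 6 weeks (36.4%, beside 10.9% of all genes tested). A further 2 were higher (6.06%, beside 12.0%), and the median was -0.29. The groups did not overlap for 15 of the 33, beside 23.5% of all genes tested. Fas (chr19:34290666-34327772, plus strand), the death receptor that is floxed in these mice, was at 57.7, 34, 34.1 and 38.4 CPM at 3 weeks and at 26.1, 32.7, 39.7 and 27.1 CPM at 6 weeks, beside 21.1 to 23.9 CPM in naive mice. The groups overlapped and Fas was not called (-0.39, SE 0.20, adjusted p = 0.16), and without replicate 1 at 3 weeks, its highest library, the change was -0.18 (adjusted p = 0.505). Downstream of the receptor, Casp8, the initiator caspase, was at 34.3, 26.7, 28.4 and 25.4 CPM at 3 weeks and at 11.0, 19, 16.5 and 16.7 CPM at 6 weeks, with no overlap (-0.86, SE 0.20, adjusted p = 0.00509). Bid, which links Casp8 to mitochondria, also fell (-0.85). Replicate 1, with the most endothelial RNA at 3 weeks, was the highest of its group for Casp8 as for Fas. In the single-cell library labelled Fas+/+ 6 weeks, Casp8 was at 18.5 UPM in kept cells and 36.3 UPM over all cells. Fas was at 58.4 and 99.96 UPM there. Over the alternatives the change of Casp8 was -0.95 to -0.51, with its call kept. The part of endothelial cells in these values was not tested. Of the mitochondrial arm, Apaf1, the scaffold of the apoptosome, was at 39.0, 36.0, 40.3 and 35.3 CPM at 3 weeks and at 19.9, 23.7, 22.1 and 22.1 CPM at 6 weeks (-0.78, SE 0.10, adjusted p = 0.000143), and the pore former Bak1 fell by 0.84. Of the members that protect cells, Bcl2 rose from 30.7 to 37.2 CPM to 40.5 to 45.2 CPM (0.28, adjusted p = 0.0127), and Ptpn13, a phosphatase that binds Fas, rose by 0.38 on the log2 scale (adjusted p = 0.0294), while Cflar (-0.04), Mcl1 (-0.12) and Bcl2l1 (0.16) were not called. The inhibitor of apoptosis Birc6 fell (-0.29), and Xiap was not called (-0.40). The count of 12 was 7 without replicate 1 at 6 weeks and 9 with the endothelial covariate, under which 0 were higher.

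The alveolar lipofibroblast markers were the list with the most members that rose: 19 of 23 were higher, 1 was lower, and 19 of the 23 had no overlap (median 0.75; with the endothelial covariate 18 higher and a median of 0.69). Members such as Inmt, Cdo1, Tcf21 and Pdgfra are also among the genes that the study ordered between lipofibroblasts and profibrotic fibroblasts in single cells of this series. The list is therefore not independent of these data, and its counts are a description. Inmt (chr6:55170626-55175043, minus strand), a methyltransferase abundant in resting lung fibroblasts, was at 1419, 618, 595 and 890.3 CPM at 3 weeks and at 2933, 2233, 2317 and 2709 CPM at 6 weeks, beside 3002 to 3651 CPM in naive mice (1.53, SE 0.22, adjusted p = 0.000215). Replicate 1 was the highest at 3 weeks and still far below every library at 6 weeks. Tcf21, the transcription factor of lipofibroblasts, was at 209, 100.1, 102 and 130.3 CPM at 3 weeks and at 326, 249.3, 311 and 258 CPM at 6 weeks (1.08, SE 0.23, adjusted p = 0.00265). Pdgfra, the receptor of alveolar fibroblasts, was at 1155, 864, 965 and 1111 CPM at 3 weeks and at 1483 to 1886 CPM at 6 weeks (0.70, adjusted p = 0.00155), and Cdo1, cysteine dioxygenase, rose by 1.07 on the log2 scale and Fgf10, the growth factor for alveolar epithelium, by 0.65. The lipid genes of the list did not move as one. Lpl, lipoprotein lipase, fell from 223, 452, 503 and 440.3 CPM to 87.7, 137, 103 and 186 CPM (-1.65, SE 0.28, adjusted p = 0.000618), G0s2, an inhibitor of lipolysis, rose (1.41), and Pparg (-0.02) and the lipid droplet protein Plin2 (0.11) were not called. Outside the list, Lrat, which stores retinol as its ester, rose from 48.2, 25.1, 21.6 and 49.9 CPM to 151, 123, 237 and 151 CPM, within 119.7 to 209.8 CPM of naive mice in all but replicate 3 (2.19, SE 0.30, adjusted p = 0.000176).

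Of the adventitial fibroblast markers, genes of the fibroblasts around vessels and airways, 5 of 16 were higher and 0 lower (median 0.28). Gpc3, a glypican, went from 447, 453, 411 and 657 CPM to 914, 760.4, 877 and 938 CPM (0.83, SE 0.13, adjusted p = 0.000391), and Rbp4, the retinol carrier, from 19.1, 8.6, 10.0 and 16.1 CPM to 35.3, 31.9, 29.7 and 24.4 CPM (1.17, SE 0.23, adjusted p = 0.00154). Without replicate 1 at 3 weeks the list had 4 genes higher and 2 lower, and with Ddx3y as a covariate 8 higher. Pi16 (0.54) and Dpp4 (-0.07), which mark these cells, were not called.

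Contractile genes of smooth muscle and myofibroblasts were higher in 8 of 18 genes and lower in 0 (median 0.34). Itga8, the integrin chain of alveolar and contractile fibroblasts, was at 813, 526, 471 and 691 CPM at 3 weeks and at 1414, 1158, 1242 and 1329 CPM at 6 weeks (1.04, SE 0.16, adjusted p = 0.000272). Myh11, the smooth muscle myosin, was at 662, 519, 427 and 603 CPM at 3 weeks and at 938 to 1222 CPM at 6 weeks (0.94, SE 0.22, adjusted p = 0.00578), and the kinase Mylk rose by 0.55. Of 10 pericyte markers 6 rose as well, among them the receptor Notch3 (0.67). With the endothelial markers as a covariate, 3 contractile genes were called higher and 2 lower, and 0 pericyte markers were called. Without replicate 2 or 3 at 3 weeks 5 contractile genes and 1 pericyte marker were higher, as was 1 pericyte marker without replicate 1 at 6 weeks.

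Elastic fiber genes split, with 5 of 17 lower and 5 higher (median -0.04). The 5 lower were 8 without replicate 1 at 3 weeks, and 3 without replicate 3 at 3 weeks or with Ddx3y as a covariate. Eln, elastin, was at 3087, 6996, 7997 and 6403 CPM at 3 weeks and at 2902, 2511, 2620.4 and 3551 CPM at 6 weeks (-1.08, SE 0.27, adjusted p = 0.00881), and the fibrillin Fbn2, of growing elastic fibers, fell by 3.34. The genes that rose included Ltbp4, which with fibulins assembles elastin, from 1263, 877, 854 and 1149.5 CPM to 2067, 1750.3, 1900.2 and 1952 CPM (0.89, SE 0.13, adjusted p = 0.000219), and the fibulins Fbln1 (0.69) and Fbln5 (0.78). Of 10 small leucine-rich proteoglycans 3 rose and 1 fell (median 0.07). Prelp, which anchors basement membrane to matrix, went from 2052, 1575, 1532 and 1993 CPM to 3543, 3056, 2974 and 3514 CPM (0.87, SE 0.13, adjusted p = 0.000266), and Ogn, osteoglycin, rose by 1.06, whereas Bgn, biglycan, was not called (-0.12).

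Wnt ligands, antagonists and targets were higher in 11 of 28 genes and lower in 4 (median 0.24). Wnt2, a ligand of alveolar fibroblasts, rose from 30.4, 28.2, 23.6 and 33.2 CPM to 63.2, 42.8, 73.0 and 51.2 CPM (0.99, SE 0.15, adjusted p = 0.000283), and Axin2, a target of canonical signaling, from 94.6, 75.2, 68.6 and 73.7 CPM to 133, 114, 106 and 117 CPM (0.59, SE 0.10, adjusted p = 0.000768). The 4 genes that fell were the ligand Wnt10a (-3.11) and the secreted antagonists Frzb (-2.66), Dkk2 (-1.92) and Sfrp1 (-1.62). The ligand Wnt7a (1.90) rose too, beside the epithelial markers described below. So did Wnt3a (2.12), which is not in this list and was named by size of change. With Ddx3y as a covariate 2 genes were lower.

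Inflammatory fibroblast genes were lower in 7 of 32 genes and higher in 4 (median -0.42; without replicate 1 at 3 weeks, 11 lower). The interleukin Il6 was at 4.66, 22.7, 48.6 and 50 CPM at 3 weeks and at 3.35, 6.14, 8.58 and 11.8 CPM at 6 weeks (-2.08, SE 0.49, adjusted p = 0.00604; with only the groups compared, 0.0603). Has2, which makes hyaluronan, was at 4.17, 54.7, 77.7 and 44.6 CPM at 3 weeks and at 5.34 to 6.42 CPM at 6 weeks (-2.96, SE 0.59, adjusted p = 0.00199). Cxcl12, a chemokine that endothelial cells also express, was lower in every library at 6 weeks, with 891, 723, 822 and 664 CPM against 242, 397, 355 and 308 CPM (-1.25, SE 0.27, adjusted p = 0.00329). The complement genes C3 (0.53) and C4b (0.50) and the adhesion molecules Icam1 (0.69) and Vcam1 (0.48) rose. These 4 calls were 0 without replicate 2 at 3 weeks or replicate 3 at 6 weeks, 1 without replicate 3 at 3 weeks, without replicate 2 at 6 weeks or with the endothelial covariate, and 2 without replicate 4 at 6 weeks. Of 32 interferon-stimulated genes 2 rose (Ifit2 and Gbp2), 1 fell (Oasl1) and 0 had no overlap (median -0.14; 4 fell without replicate 3 at 6 weeks). Oasl1 lost its call under 11 of 17 alternatives, 6 of them with a single library left out, and Gbp2 under 3, with adjusted p of up to 0.136 and 0.0888.

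Of the genes of the secretory pathway, 8 of 31 were higher (25.8%, beside 12.0% of all genes tested). A further 2 were lower (6.45%, beside 10.9%), and the median was 0.07. Hspa5, the main chaperone of the endoplasmic reticulum, was at 568, 579, 771 and 742 CPM at 3 weeks and at 864 to 1055 CPM at 6 weeks (0.56, SE 0.18, adjusted p = 0.0341), and the stress factor Atf5 rose by 0.75. Without replicate 1 at 3 weeks the list had 7 genes higher and 7 lower, with the endothelial covariate 7 and 6, and 5 were higher without replicate 2 at 3 weeks, without replicate 1 at 6 weeks or with Ddx3y as a covariate. Of 18 genes that make serine, glycine, proline and arginine, which collagen consumes, 4 fell and 2 rose (median -0.25), the 4 being Ass1, Mthfd1l, Mthfd2 and Asns; 8 fell without replicate 1 at 3 weeks or with the endothelial covariate. Glul, the glutamine synthetase, was not called (0.20).

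Of 18 epithelial markers 9 rose at 6 weeks, 0 fell and 6 had negative changes that were not called (median 0.83). Ager, the type I cell receptor, went from 388, 119.8, 93.6 and 156 CPM to 558, 1031, 615 and 429 CPM (1.80, SE 0.52, adjusted p = 0.0195), while the surfactant genes Sftpc (-0.45) and Sftpb (-0.53) were not called. Without replicate 2 at 6 weeks, the library with the most of this RNA, 4 rose and 6 fell, and without replicate 2, 3 or 4 at 3 weeks 4 or 5 rose. Of the genes named by size of change, Foxa1, an epithelial transcription factor, rose from 1.37, 0.55, 0.266 and 0.76 CPM to 3.15, 4.79, 1.69 and 2.37 CPM (1.97), and the immunoglobulin gene Ighg2c, a plasma cell product, from 0.589, 0.7, 3.81 and 1.27 CPM to 16.1, 10.2, 9.77 and 15.7 CPM (3.12, adjusted p = 0.0376). Ighg2c lost its call under 10 of 17 alternatives, among them DESeq2, the endothelial covariate and 7 of the 8 omissions of a single library, with adjusted p of up to 0.192. Of 9 mesothelial markers, the lining cells of the pleura, 7 rose (median 1.05), among them Upk3b, uroplakin 3B, from 105, 86.7, 81.5 and 165 CPM to 209, 179.7, 273 and 273 CPM (1.09, SE 0.25, adjusted p = 0.00522).

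Each time point was also set against naive mice. The comparisons share the naive libraries with each other and their bleomycin libraries with the main result, so the medians are given side by side only. The median log2 fold change over naive mice was 1.04 at 3 weeks and -0.14 at 6 weeks for the fibrillar collagens, 1.80 and 0.17 for the profibrotic markers, 2.29 and -0.28 for the cell cycle genes, -1.05 and -0.19 for the lipofibroblast markers and -0.63 and -0.25 for the contractile genes. Over all genes, 3484 were higher and 3033 lower than in naive mice at 3 weeks, and 563 were higher and 274 lower at 6 weeks. Tgfb1, Cthrc1, Chst11 (0.90, adjusted p = 0.00868) and Ass1 (1.43, adjusted p = 0.000237) were among those still above naive mice.

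The same interval was compared in the Fas-/- mice, which share no library with the Fas+/+ mice. Here too a library stood apart: replicate 4 at 3 weeks had 13198 CPM of summed endothelial markers, against 1276 to 1989 CPM in the other 3, and 19646 CPM of fibrillar collagens against 33976 to 42570 CPM. At 6 weeks replicate 2 had 4362 CPM of endothelial markers, against 421 to 903 CPM. In the Fas-/- mice 716 genes were called lower at 6 weeks (4.54%) and 706 higher (4.48%). Of the 1725 genes that fell in Fas+/+ mice, 1671 (96.9%) had a negative change in Fas-/- mice and 479 were called lower there. The median change of these genes was -0.68 in Fas+/+ and -0.38 in Fas-/- mice. Of the 1890 genes that rose, 1744 (92.3%) had a positive change and 521 were called higher there (medians 0.59 and 0.30). Over all genes tested the sign was the same for 77.1%. Without replicate 4 of the Fas-/- mice at 3 weeks 591 genes were called lower and 527 higher, and 1577 (91.4%) of the genes that fell and 1707 (90.3%) of those that rose in Fas+/+ mice had the same sign. Without that library and replicate 2 at 6 weeks 490 were lower and 379 higher. Some other single omissions in Fas-/- mice gave larger losses, down to 227 lower and 341 higher without replicate 3 at 6 weeks. The omissions of replicate 2 at 3 weeks (308 and 386), of replicate 1 at 3 weeks (480 and 457) and of replicates 1 (416 and 481) and 4 at 6 weeks (358 and 382) also moved 1 or both counts by over 1.5 times. A choice of genes by their call in one genotype favors a larger change in that genotype. Chosen by the call in Fas-/- mice, the 716 genes lower in Fas-/- mice had medians of -0.57 in Fas+/+ and -0.77 in Fas-/- mice, and the 706 higher ones 0.50 and 0.51.

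The lists had the following medians in the Fas-/- mice, given beside those of the Fas+/+ mice. The cell cycle genes fell in both genotypes, with a median of -2.22 and 32 of 42 called lower in Fas-/- mice. For the fibrillar collagens the median in Fas-/- mice was -0.41 with 0 called, and for the profibrotic markers it was -0.73. Without replicate 4 at 3 weeks, the library that stood apart, the medians were -0.59, with 1 fibrillar collagen called, and -0.91. The median was 0.05 for the contractile genes (0.34 in Fas+/+ mice), 0.05 for the TGF-β pathway (-0.19) and 0.28 for the lipofibroblast markers (0.75). Without replicate 4 at 3 weeks the median of the contractile genes in Fas-/- mice was -0.17. Some lists had larger medians in Fas-/- mice. Interferon-stimulated genes had a median of -1.12 with 27 of 32 called lower, beside 1 of 32 in Fas+/+ mice, the inflammatory fibroblast genes one of -0.83 beside -0.42, and the small leucine-rich proteoglycans one of 0.43 beside 0.07. The difference between the genotypes was tested as an interaction, described next, and the 1 gene called for it is in none of these lists. Among the interferon-stimulated genes 27 had an unadjusted interaction p under 0.05, and the smallest adjusted p was 0.0742. Of these genes 4 were called for the interaction without replicate 4 of Fas-/- mice at 3 weeks (smallest adjusted p = 0.0308) and 3 without replicate 1 of Fas-/- mice at 6 weeks (0.0452).

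The genotype-by-time interaction was called for 1 of 15773 genes, with 1210 at an unadjusted p under 0.05. It was Nav2, a neuron navigator protein that binds the cytoskeleton, at 55.1, 55.6, 55.8 and 64.8 CPM at 3 weeks and 72.7, 74.6, 88.1 and 82.2 CPM at 6 weeks in Fas+/+ mice (0.46, SE 0.08), against a change of -0.34 in Fas-/- mice (difference 0.79, adjusted p = 0.0269). Lists and genes called in one genotype alone are therefore not shown to differ between the genotypes. DESeq2 called 100 genes for the interaction, and leaving out replicate 1 of Fas+/+ mice at 3 weeks gave 162 and replicate 4 of Fas-/- mice at 3 weeks 29.

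**Figure D4:**
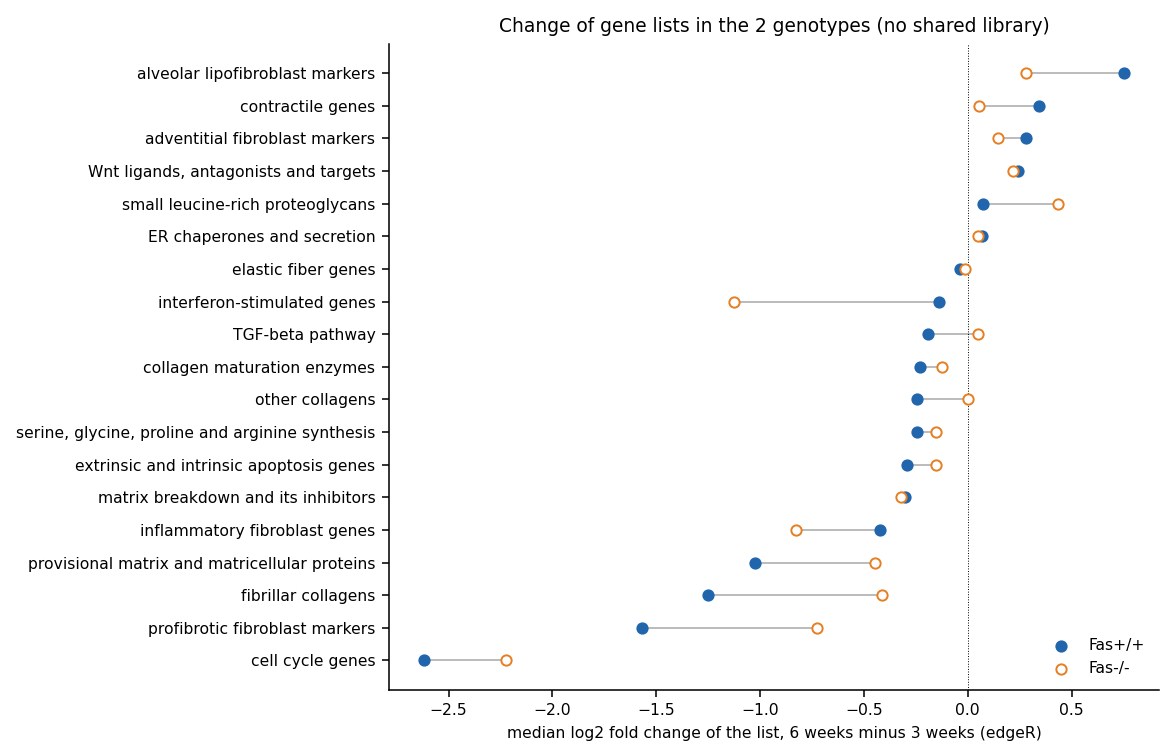
Median log2 fold change (6 over 3 weeks, edgeR) of 19 gene lists in Fas+/+ mice (filled) and Fas-/- mice (open), which share no library. Cell cycle genes are lowest in Fas+/+ mice and low in both, at -2.62 and -2.22, and interferon-stimulated genes are at -0.14 in Fas+/+ and -1.12 in Fas-/- mice.

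The single-cell libraries, each from a pool of mice, offer a separate reading of the same conditions. After filters on genes and mitochondrial UMIs, cells with a UMI of Ptprc, Pecam1, Cdh5 or Epcam were left out, which removed 19.6% of 2664 cells from the library labelled Fas+/+ 3 weeks and 50.8% of 3240 cells from the one labelled 6 weeks, and left 2142 and 1594 cells. The kept cells were not free of endothelial RNA. Cldn5 was detected in 6.21% of those labelled Fas+/+ 3 weeks and 12.3% of those labelled 6 weeks, and Kdr in 5.14% and 6.02%. These 2 libraries shared 85 cell barcodes, and other pairs of libraries 88 to 257. The naive library, in which 603 cells passed the filters, shared 250 barcodes with the library labelled Fas-/- 3 weeks. The cause of the sharing was not tested. The single-cell values of naive mice below are given with this limit. With 1 library per condition there is no test, and the intervals (95%, exact Poisson) cover counting error only.

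Cthrc1, Spp1 and Inmt, which were called between the bulk groups, were reversed between the single-cell labels. Cthrc1 was at 15.6 UPM (14.0 to 17.4) in the library labelled 3 weeks and at 154.1 (148.8 to 159.5) in the one labelled 6 weeks, beside 0.777 in naive mice. Spp1 was at 319.3 (311.8 to 326.9) and 5166 (5135 to 5197), and Inmt at 2966 (2943 to 2989) and 1253 (1238 to 1268). In each case the library labelled 3 weeks lay nearer to naive mice than the one labelled 6 weeks did. All 42 cell cycle genes were higher in the library labelled 6 weeks, as were 17 of 18 profibrotic markers and 10 of 10 fibrillar collagens measured, and 22 of 23 lipofibroblast markers were lower. The profibrotic and lipofibroblast lists hold genes that the study drew from these same single cells, so their counts are no independent reading. Not every list was reversed. In the kept cells 17 of 27 Wnt genes were higher (median log2 ratio 0.25, beside 0.24 in bulk) and 20 of 31 interferon-stimulated genes lower (-0.19, beside -0.14). With all cells that passed the filters these medians were -0.08 and 0.15. Of 1794 genes that rose in bulk 1579 (88.0%) were lower in the library labelled 6 weeks, and over all 13493 genes measured 6757 were higher and 6736 lower.

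The libraries labelled Fas-/- showed the same reversal. Of 1588 genes that fell in bulk Fas+/+ mice 1390 were higher in the library labelled Fas-/- 6 weeks than in the one labelled Fas-/- 3 weeks, and of 1782 that rose 1462 were lower. Cthrc1 was at 38.2 UPM in the library labelled Fas-/- 3 weeks and at 122.1 in that labelled 6 weeks. In Fas-/- mice 30 of 31 interferon-stimulated genes were higher in the library labelled 6 weeks, whereas 27 of 32 were called lower at 6 weeks in bulk. Which of the labels hold, in bulk or in single cells, was not tested.

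**Figure D5:**
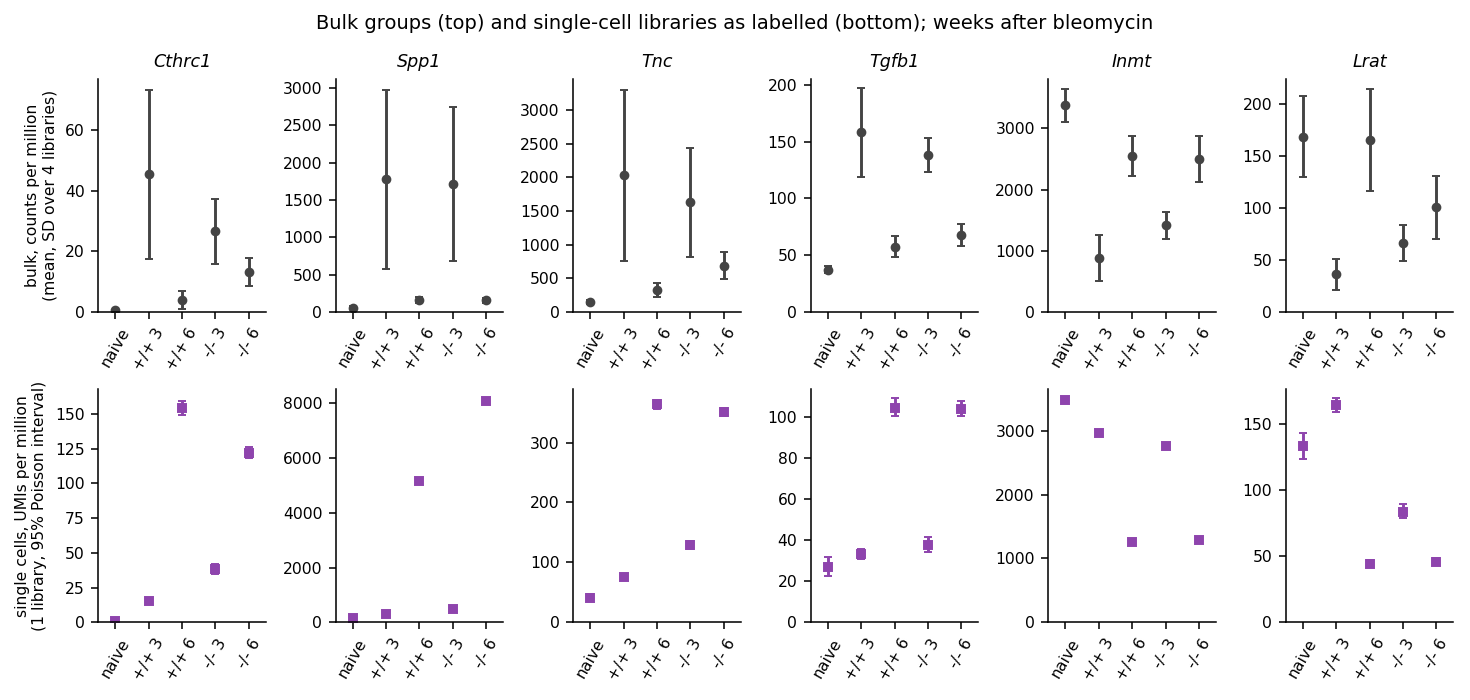
Top, bulk CPM (mean and SD, n = 4 libraries); bottom, single-cell UPM (1 library, 95% Poisson interval), for 6 genes in naive mice and in Fas+/+ and Fas-/- mice by the labelled week. Cthrc1, Spp1, Tnc and Tgfb1 are highest in the bulk groups at 3 weeks and in the single-cell libraries labelled 6 weeks, and Inmt and Lrat show the opposite order.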

How the data were processed

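Gene expression was measured by bulk RNA-seq in 20 libraries of Lin- cells and by single-cell RNA-seq in 5. The authors deposited raw bulk counts for 47729 Ensembl genes, which they had obtained with skewer (trimming), HISAT2 (alignment to GRCm38) and htseq-count. The strand setting of the counting is not given in the sources used here, so overlapping and antisense genes are uncertain. For single cells the authors deposited Cell Ranger counts of UMIs. A second deposited table of normalized values was not used.

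The count analysis used edgeR 4.0.16 (R 4.3.3), with filterByExpr (minimum count 10), TMM, and quasi-likelihood F tests on 5 groups of 4 libraries, with Benjamini-Hochberg adjustment over 15773 genes and a prior count of 2 for log2 CPM. The tests were first tested on simulated data. Total counts per library are given with the results. Counting error was set against the spread between replicates by a chi-square for each pair of libraries, averaged over genes, for which counting error alone gives about 1. It was 7.82 to 173.4 between Fas+/+ replicates at 3 weeks and 12.68 to 26.42 at 6 weeks, so the spread averaged over genes was above counting error. Single genes were not examined in this way. Counting error weighs most on genes near or below 1 CPM, such as Foxa1 at 3 weeks and Mmp10 and Lrrc15 at 6 weeks. The labels do not say that replicates were separate mice, so p-values measure the spread between these libraries, part of which may be technical. Ddx3y ranged from 0.049 to 59.8 CPM within the Fas+/+ libraries at 3 weeks and from 0.084 to 48.4 CPM at 6 weeks. The libraries of a group are therefore not repeats of 1 RNA sample. Some held both Xist, an RNA of female cells, and Ddx3y (74.2 and 50.3 CPM in Fas+/+ replicate 2 at 3 weeks). Whether those were pools was not tested. Cells were retained that had 200 to 7500 genes and up to 20% of their UMIs from mitochondria, doublets were limited only by the upper bound, and ratios were taken for genes with at least 20 UMIs.

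Alternatives were RLE normalization, no filter, DESeq2 1.42.0, only the groups compared, a replicate block, Ddx3y, endothelial or epithelial covariates, a 2-fold minimum and each library left out in turn. Leaving out 2 libraries together, and the alternatives of the Fas-/- comparison, were added after seeing the data. Genes were named by rule: the 10 smallest p in each direction among called genes with no overlap, the 6 largest changes in each direction at a mean of at least 1 CPM, the 5 smallest p and the most abundant member of each pathway list, Fas, and genes called for the interaction. Some list members are counted but not reported here by name. The samples, gene lists and marker lists were chosen with earlier results of these data known. The lipofibroblast, adventitial and profibrotic lists share members with genes by which the study described clusters in single cells of this series.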

Additional observations from a re-analysis of the deposited data

Results flagged for a closer look

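Named genes were examined for a library far from the other 3 of its group, by the gap to the nearest library over the range of the group. This picked out 14 of 258 groups of 4, and chance gives about 1 in 20. Replicate 1 at 3 weeks was the far library for 4 of them: it was the lowest for Col24a1 (5.2 CPM) and Bgn (3307 CPM) and the highest for Glul (366 CPM) and Stat2 (96.7 CPM). Also at 3 weeks, replicate 3 was the highest for Sdf2l1 (25.1 CPM), and replicate 4 was the highest for Gpc3 (657 CPM) and Nav2 (64.8 CPM).

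At 6 weeks, replicate 1 was the lowest for Mfap2 (53.3 CPM) and Mthfd1 (34.6 CPM) and the highest for Adh1 (421 CPM). Replicate 2 was the lowest for Il11ra1 (122 CPM) and the highest for Zswim6 (25.2 CPM), replicate 3 the lowest for Timp3 (2263 CPM) and replicate 4 the highest for Col11a1 (6.7 CPM). Between genotypes, Nav2 was the gene whose change from 3 to 6 weeks differed by the interaction test, with a difference of 0.79 on the log2 scale between Fas+/+ and Fas-/- mice.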

How the results depend on the processing

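Counts of genes lower and higher at 6 weeks in Fas+/+ mice were 1725 and 1890. With a minimum of 2-fold they were 669 and 348. With single libraries left out, genes lower ranged from 1102 (without replicate 1 at 6 weeks) to 2305 (without replicate 1 at 3 weeks), and genes higher from 1327 to 2574. Under RLE normalization, no filter, DESeq2, only the groups compared, the covariates, and replicate 1 at 3 weeks and replicate 2 at 6 weeks left out together, the counts stayed within 1.5 times. The replicate block gave 1559 and 1840. Same-numbered libraries correlated at -0.0182 to 0.254 in their deviations, so the numbers do not pair the libraries.

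The interaction count of 1 was 0 with a 2-fold minimum, with only the groups compared and with the epithelial covariate, 3 without the filter, 3 with the replicate block, 13 with Ddx3y, 43 with the endothelial covariate, 72 without those 2 libraries, 5 without replicate 4 at 3 weeks and replicate 2 at 6 weeks of the Fas-/- mice, and 100 with DESeq2. With single libraries left out it ranged from 0 to 162, the highest without replicate 1 of Fas+/+ mice at 3 weeks. The cause was not tested.

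In Fas-/- mice the counts of 716 lower and 706 higher were 306 and 68 with a 2-fold minimum, 469 and 422 without the filter, 1120 and 1089 without the 2 Fas+/+ libraries, 1094 lower with DESeq2 and 379 higher without the 2 Fas-/- libraries. With single Fas-/- libraries left out they ranged from 227 to 759 and from 341 to 697. The replicate block gave 649 and 687.

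Of 121 named genes called, 106 kept their call under each alternative in which they were tested and 15 lost it under at least 1, with 0 changes of sign. There were 17 alternatives, and 16 for Bub1, Cdc25c, Podnl1 and Mmp10, which the filter dropped with only the groups compared. Of 125 single-cell ratios of the library labelled 6 weeks to that labelled 3 weeks, 79 moved beyond their interval when all cells that passed the filters were used. Of the ratios whose interval lay to one side of 1 in the kept cells, those that turned were Popdc3 (0.524), Calr (0.992), Glul (1.05), Tgfbr2 (0.954) and Wnt10b (0.794). Of those whose interval held 1, Fas went from 0.931 (0.861 to 1.01) to 1.46 (1.38 to 1.54), Oasl1 from 0.83 to 1.48 and Wnt3a from 1.03 to 0.452. The depth of 11819700 counts in replicate 3 at 3 weeks limits genes near 1 CPM most.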
